A study of Mus musculus with 6 samples.

Results

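The hypoxia-inducible factor (HIF) pathway was examined through 10 genes, chosen by name from the 35602 genes of the count table. They are *Hif1a*, which encodes the regulated subunit HIF-1α, the prolyl hydroxylase genes *Egln1*, *Egln2* and *Egln3*, the ubiquitin ligase gene *Vhl*, and the hypoxia-induced genes *Bnip3*, *Bnip3l*, *Vegfa*, *Ankrd37* and *Ndrg1*. All 10 symbols were found in the count table and in both single-library tables.

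HIF is a transcription factor formed by an oxygen-sensitive alpha subunit and a stable partner encoded by *Arnt*. When oxygen is plentiful, the Egln enzymes hydroxylate the alpha subunit, and the Vhl ligase then marks it for degradation. When oxygen or hydroxylase activity is low, the subunit accumulates and switches on genes for glycolysis, mitophagy and vessel growth, among them *Egln1* and *Egln3* themselves. Antigen receptor stimulation of T cells also raises HIF-1α, where it favors glycolysis.

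CD4+ T cells from mouse spleen were activated with anti-CD3/CD28 antibodies and given either MAPK13-IN-1, an inhibitor of the p38 family kinase encoded by *Mapk13*, or the solvent DMSO, with 3 libraries in each group. Replicates 2 and 3 of both groups are labelled WT, and for them the labels place the addition of DMSO or of 17.1 µM inhibitor after day 1 of stimulation, whereas the series describes 72 h of stimulation in the presence of either. A kit for stranded mRNA libraries served for replicate 1 of each group, and poly-T beads for the others. The oxygen level of the cultures is not given in the sources used here.

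Replicates 2 and 3 were available as counts, with totals of 26874805 and 28487403 in the DMSO libraries and 33854760 and 32617702 in the MAPK13-IN-1 libraries. Replicate libraries were not copies of each other, with a chi-square per gene of 3.08 on average (median 1.02) in DMSO and 9.60 (median 2.16) with MAPK13-IN-1, where sampling noise alone gives a mean of about 1, so each was kept as its own sample. Nothing in the labels says that they came from separate cultures or animals, so the p-values measure only the spread between these samples, which may be technical. The replicate 1 pair was available as normalized values, read here as FPKM (fragments scaled by gene length and library size), of unknown depth. With 1 library per group it entered no test and has no replicate check.

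Before the pathway, the labelled cell type was compared with marker genes. Marker levels are sums of CPM (counts scaled to a common library total) in the order DMSO replicate 2, DMSO replicate 3, MAPK13-IN-1 replicate 2 and MAPK13-IN-1 replicate 3, and then of FPKM in DMSO and MAPK13-IN-1 replicate 1. The gene named as leading a list has the highest sum of CPM over the 4 libraries and need not lead in each. The 8 CD4 T cell markers summed to 1696, 1718, 992 and 1110 CPM, and to 1265 and 1127 FPKM. With MAPK13-IN-1, 7 of the 8 were lower and 0 higher (adjusted p under 0.05, edgeR), and *Cd5* led the list. These counts, and those of the other marker lists, are to be read beside 31.5% higher and 32.3% lower among all genes tested. The 8 B cell markers summed to 1017, 990 and then 1268 and 1284 CPM, and to 47.9 and 35.9 FPKM. Of these, 6 were higher and 1 was lower, and *Pax5* led the list. As levels per length (RPKM, reads scaled by exon length and library total, computed here), the B cell markers summed to 395, 386, 485 and 482 RPKM and the CD4 T cell markers to 478, 482, 270 and 302 RPKM. The labels name CD4 T cells, and the methods describe a kit that enriches mouse CD4 T cells, yet B cell marker levels were near those of CD4 T cell markers in DMSO and above them with MAPK13-IN-1. It is therefore open whether the libraries of the count table are from purified CD4 T cells. Per length, *Cd4* was at 65.4 and 65.3 RPKM in the DMSO libraries, at 69.4 and 73.0 RPKM with MAPK13-IN-1, and at 118 FPKM in DMSO replicate 1. It was the CD4 T cell marker that did not pass, at 275, 276, 267 and 283 CPM when scaled by TMM (edgeR's factors for differences in composition; log2 fold change −0.00064, adjusted p = 0.993, edgeR), and was at 146 FPKM in MAPK13-IN-1 replicate 1. It was singled out after its values were seen.

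Other cell types left fewer transcripts. The 6 CD8 T and NK cell markers, led by *Cd8b1*, summed to 12.9, 12.8, 7.98 and 10.5 CPM (2 lower, 0 higher, 4 tested) and to 4.35 and 13.5 FPKM. The 8 macrophage and monocyte markers, led by *Cd68*, summed to 11.7, 10.5, 41.0 and 33.5 CPM (4 higher, 0 lower, 6 tested) and to 3.01 and 9.56 FPKM. *C1qa* and *C1qc* had 0 counts in both DMSO libraries. The 6 dendritic cell markers, led by *Zbtb46*, summed to 18.4, 18.6, 61.9 and 51.1 CPM (4 higher, 0 lower, 4 tested) and to 3.36 and 14.6 FPKM, with 0 counts of *Siglech* and *Clec9a* in both DMSO libraries. The 9 erythroid markers, led by *Hbb-bs*, summed to 8.04, 7.90, 96.9 and 69.5 CPM (7 higher, 0 lower, 8 tested) and to 0.938 and 1.97 FPKM. The 5 platelet markers, led by *Itga2b*, summed to 9.60, 8.67, 18.3 and 19.2 CPM (2 higher, 0 lower, 2 tested) and to 0.969 and 2.17 FPKM, with *Ppbp* at 0 counts in all 4 libraries. The 6 stromal and endothelial markers, led by *Pecam1*, summed to 41.7, 39.7, 83.1 and 77.7 CPM (1 higher, 1 lower, 3 tested) and to 7.92 and 6.48 FPKM, with *Col3a1* at 0 counts. *Pecam1* alone was at 39.8, 36.9, 75.4 and 70.3 CPM when scaled by TMM, so it made up most of these sums of CPM. The 8 neutrophil markers, led by *Mpo* through the MAPK13-IN-1 libraries alone, stayed between 0.421 and 1.23 CPM (1 higher, 0 lower, 1 tested) and were at 0.757 and 0.468 FPKM, and *S100a9* had 0 counts. Among the genes counted as higher in these lists, *C1qb*, *Xcr1*, *Slc4a1*, *Gp9* and *Mpo* reached the minimum count of 10 only in the MAPK13-IN-1 libraries. The filter admitted them through the group where they were high, so their calls add nothing to the counts of higher genes. The part of these cell types in the results below was not tested. In bulk RNA, fewer cells of a type and less RNA per cell cannot be told apart.

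Of the 10 HIF pathway genes, 5 rose with MAPK13-IN-1 (*Egln1*, *Vhl*, *Bnip3*, *Vegfa* and *Ndrg1*), 4 fell (*Hif1a*, *Egln2*, *Egln3* and *Ankrd37*), and *Bnip3l* did not pass the test (edgeR's quasi-likelihood test, adjusted p under 0.05 over all genes). The direction therefore differed within the hydroxylases and within the targets. Across the 16269 genes tested, 63.8% passed, 31.5% as higher and 32.3% as lower. Among the 4489 genes at least as abundant as the least abundant of the 10, 74.1% passed, 34.2% as higher and 39.9% as lower. The count of 9 among 10 therefore stands against a background in which most genes of this abundance passed. That background depends on the method, since DESeq2 called 4001 genes higher and 4277 lower of 19650, and the 9 passed there too. The median log2 fold change of the 10 genes was 0.20, against 0.01 for all genes tested, and the median of the absolute values was 0.43 against 0.52. Among genes as abundant as the 10, these medians were −0.03 and 0.35. When libraries were scaled by their totals alone, the median of all genes moved from 0.01 to 0.14 and the split from 5122 higher and 5252 lower to 6176 higher and 4302 lower, so the balance of directions over all genes depends on the scaling, and each of the 10 genes kept its direction. In the replicate 1 pair 4 of the 10 were higher and 6 lower, beside 5656 higher and 4744 lower over the genes at or above 1 FPKM in each library of the pair. Of the 9 that passed the test 5 had the same direction there, beside 4665 of the 7234 such genes that passed.

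**Figure D1:**
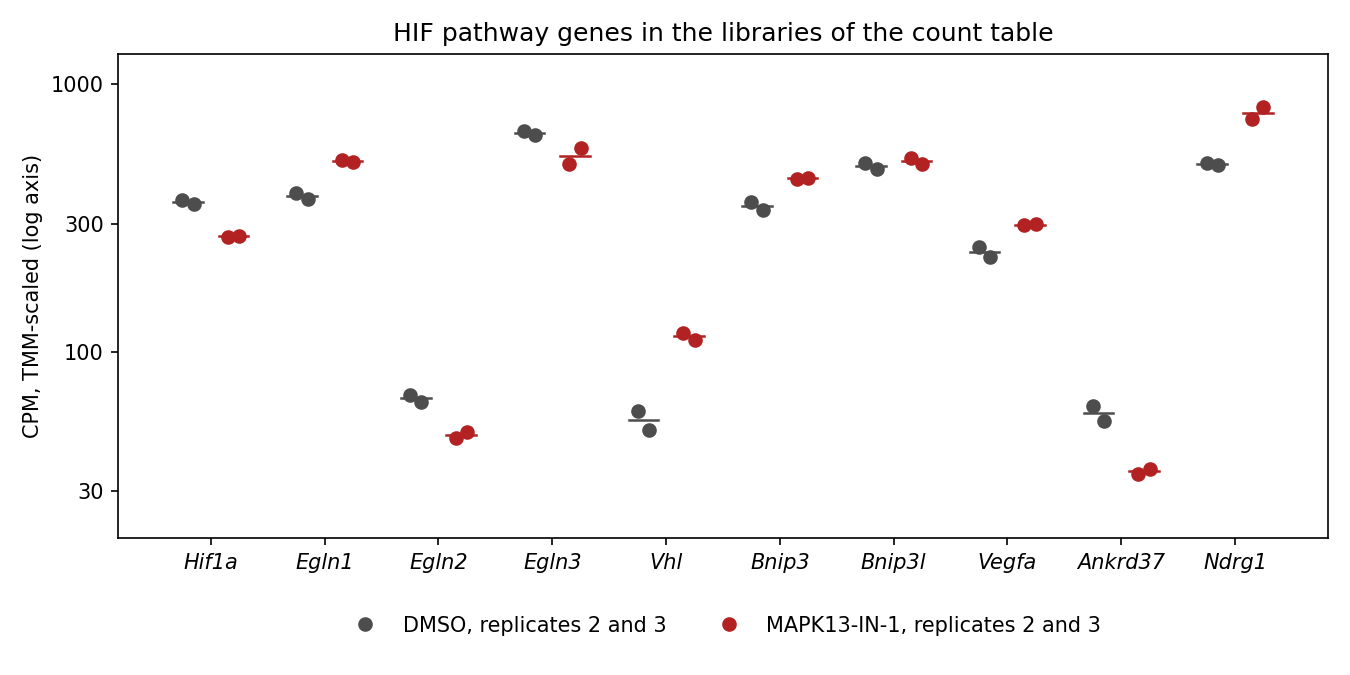
Each point is the level of 1 gene in 1 library of the count table, in CPM scaled by TMM on a log axis, for DMSO (grey) and MAPK13-IN-1 (red) replicates 2 and 3, and each line is the mean of 2 libraries. The groups do not overlap for 9 of the 10 genes, and *Bnip3l* is the exception. The same held for 83.0% of all genes tested and 89.1% of genes as abundant as the 10, so 9 of 10 is near the background.

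*Hif1a* (ENSMUSG00000021109.13, chr12:73901375-73947530, plus strand, GRCm38) was the only subunit gene among the 10. It was at 370 and 357 CPM in the DMSO libraries and at 268 and 272 CPM in the MAPK13-IN-1 libraries (CPM scaled by TMM, here and below). Both MAPK13-IN-1 libraries lay below both DMSO libraries. The log2 fold change was −0.43 (standard error, SE, 0.0519, adjusted p = 4.25e-05, edgeR), a fall of 1.35-fold from 363 ± 9.48 to 270 ± 2.52 CPM (SD, n = 2). Replicate 1 had the same direction, with 140 FPKM under the inhibitor against 177 FPKM.

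Among the other subunit genes, *Hif3a* also fell and *Epas1* and *Arnt2* rose. *Epas1*, which encodes HIF-2α, was rare at 5.12 and 3.38 CPM in DMSO and rose to 7.16 and 7.29 CPM (log2 fold change 0.77, SE 0.196, adjusted p = 0.0059, edgeR). Without DMSO replicate 3 its log2 fold change was 0.49 and the call was lost (adjusted p = 0.076, edgeR). Its replicate 1 values were 0.936 and 5.04 FPKM. *Hif3a*, which encodes an alpha subunit with products that can restrain HIF, fell from 21.4 and 20.6 to 10.3 and 10.8 CPM (log2 fold change −0.99, adjusted p = 1.85e-05, edgeR), but it was at 0.864 and 0.899 FPKM in the replicate 1 pair. *Arnt*, the stable partner, had 64.0 and 67.0 CPM in DMSO and 77.1 and 68.9 CPM with the inhibitor (adjusted p = 0.0913, edgeR). The log2 fold change of *Arnt* was 0.16. It passed with library totals (0.28, adjusted p = 0.00753, edgeR) and with at least 10 counts in every library (0.20, adjusted p = 0.035, edgeR). It was 0.23 without MAPK13-IN-1 replicate 3, 0.073 without MAPK13-IN-1 replicate 2 and 0.11 without DMSO replicate 2. When a library is left out, the spread in the fit comes from the other group alone. Calls gained or lost in this way carry that limit throughout. *Arnt2*, at 0.543, 0.441, 1.04 and 1.53 CPM, passed as higher (log2 fold change 1.38, adjusted p = 0.00947, edgeR), but not without MAPK13-IN-1 replicate 3 (1.07, adjusted p = 0.0723, edgeR) or with DESeq2 (adjusted p = 0.097).

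The Egln hydroxylases moved in different directions. *Egln1* (ENSMUSG00000031987.6, chr8:124908587-124949324, minus strand) encodes PHD2, the main HIF prolyl hydroxylase in most cells. Its level was 392 and 374 CPM in DMSO and 519 and 511 CPM with MAPK13-IN-1. The MAPK13-IN-1 libraries lay above the DMSO libraries, with a log2 fold change of 0.43 (SE 0.0511, adjusted p = 3.91e-05, edgeR). No such rise was present in replicate 1, at 17.0 FPKM in DMSO and 16.5 FPKM with the inhibitor.

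*Egln2* (ENSMUSG00000058709.11, chr7:27158658-27166802, minus strand) encodes PHD1, a hydroxylase that is not itself a typical hypoxia-induced gene. It was at 69.0 and 64.7 CPM in DMSO and at 47.4 and 50.1 CPM with MAPK13-IN-1. This was a fall in both libraries, with a log2 fold change of −0.46 (SE 0.0727, adjusted p = 0.000303, edgeR). It was at 23.4 and 21.7 FPKM in the replicate 1 pair.

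*Egln3* (ENSMUSG00000035105.5, chr12:54178981-54203860, minus strand) encodes PHD3, whose transcription is itself strongly induced by HIF. It was at 670 and 647 CPM in DMSO and at 503 and 580 CPM with MAPK13-IN-1, whose libraries were further apart than those of DMSO. Its fall was the smallest of the 9 that passed, with a log2 fold change of −0.28 (SE 0.0662, adjusted p = 0.0036, edgeR). Without MAPK13-IN-1 replicate 2 it was −0.18, and with scaling by library totals it was −0.16 and near the threshold (adjusted p = 0.0486, edgeR). Replicate 1 went the other way, from 23.5 to 26.3 FPKM. Of the other oxygen-sensing hydroxylases, *Hif1an*, which encodes the asparaginyl hydroxylase FIH, was at 66.0, 67.3, 65.0 and 68.7 CPM (adjusted p = 0.96, edgeR), and its log2 fold change of 0.0044 was negative without DMSO replicate 2 or without MAPK13-IN-1 replicate 3. *P4htm*, a transmembrane prolyl hydroxylase gene, was at 7.41, 6.40, 7.89 and 7.58 CPM (adjusted p = 0.342, edgeR).

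*Vhl* (ENSMUSG00000033933.13, chr6:113623959-113631633, plus strand) encodes the part of the ligase that recognizes hydroxylated HIF-α, and it had the largest change of the 10 genes in the count table. It was at 59.8 and 51.0 CPM in DMSO and at 118 and 110 CPM with MAPK13-IN-1. The rise was 2.06-fold, with a log2 fold change of 1.04 (SE 0.0821, adjusted p = 2.16e-06, edgeR). A smaller difference in the same direction was seen in replicate 1, from 8.21 to 10.4 FPKM.

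The partners of Vhl in the ligase did not rise with it. The 5 genes of the complex had 1 higher (*Vhl*), 3 lower and 1 that did not pass, and a median log2 fold change of −0.28. A share of 80.0% passed, beside 63.8% of all genes and 74.1% of genes as abundant as the 10. *Elob*, an adaptor gene, fell from 132 and 130 to 95.2 and 90.0 CPM (log2 fold change −0.50, adjusted p = 4.57e-05, edgeR). *Cul2*, the scaffold gene, fell from 52.4 and 57.2 to 37.4 and 34.5 CPM (−0.61, adjusted p = 9.67e-05, edgeR). *Eloc*, the other adaptor gene, fell from 52.4 and 53.3 to 45.1 and 42.1 CPM (−0.28, adjusted p = 0.00815, edgeR), a call that was lost without DMSO replicate 3 (−0.27, adjusted p = 0.0683) or with scaling by library totals (−0.15, adjusted p = 0.106). *Rbx1*, the RING finger gene, was at 47.9, 50.0, 46.8 and 40.5 CPM (−0.17, adjusted p = 0.119, edgeR). Its value was −0.27 without MAPK13-IN-1 replicate 2, −0.073 without MAPK13-IN-1 replicate 3 and −0.039 with library totals (adjusted p = 0.713, edgeR). All 4 genes that passed in this complex had the same direction in replicate 1 as in the counts, *Cul2* with 16.9 and 9.20 FPKM. Over all genes that passed and had at least 1 FPKM in both replicate 1 libraries, 4665 of 7234 agreed in this way.

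HIF needs the acetyltransferases p300 and CBP to activate transcription, and the proteins Cited2 and Cited4 compete for them. *Ep300* fell from 197 and 189 to 158 and 156 CPM (log2 fold change −0.30, adjusted p = 0.000863, edgeR), whereas *Crebbp* rose from 107 and 110 to 169 and 149 CPM (0.55, adjusted p = 6.06e-05, edgeR). With scaling by library totals the value of *Ep300* was −0.17 and still passed (adjusted p = 0.0199, edgeR). *Cited2* rose from 53.8 and 58.4 to 98.3 and 91.3 CPM (0.76, adjusted p = 8.34e-06, edgeR) and from 7.23 to 25.4 FPKM in the replicate 1 pair. *Ep300* and *Crebbp* differed little in that pair, at 16.8 and 17.6 FPKM and at 7.92 and 7.91 FPKM. *Cited4* was at 0.582, 0.699, 0.873 and 1.24 CPM (adjusted p = 0.119, edgeR).

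**Figure D2:**
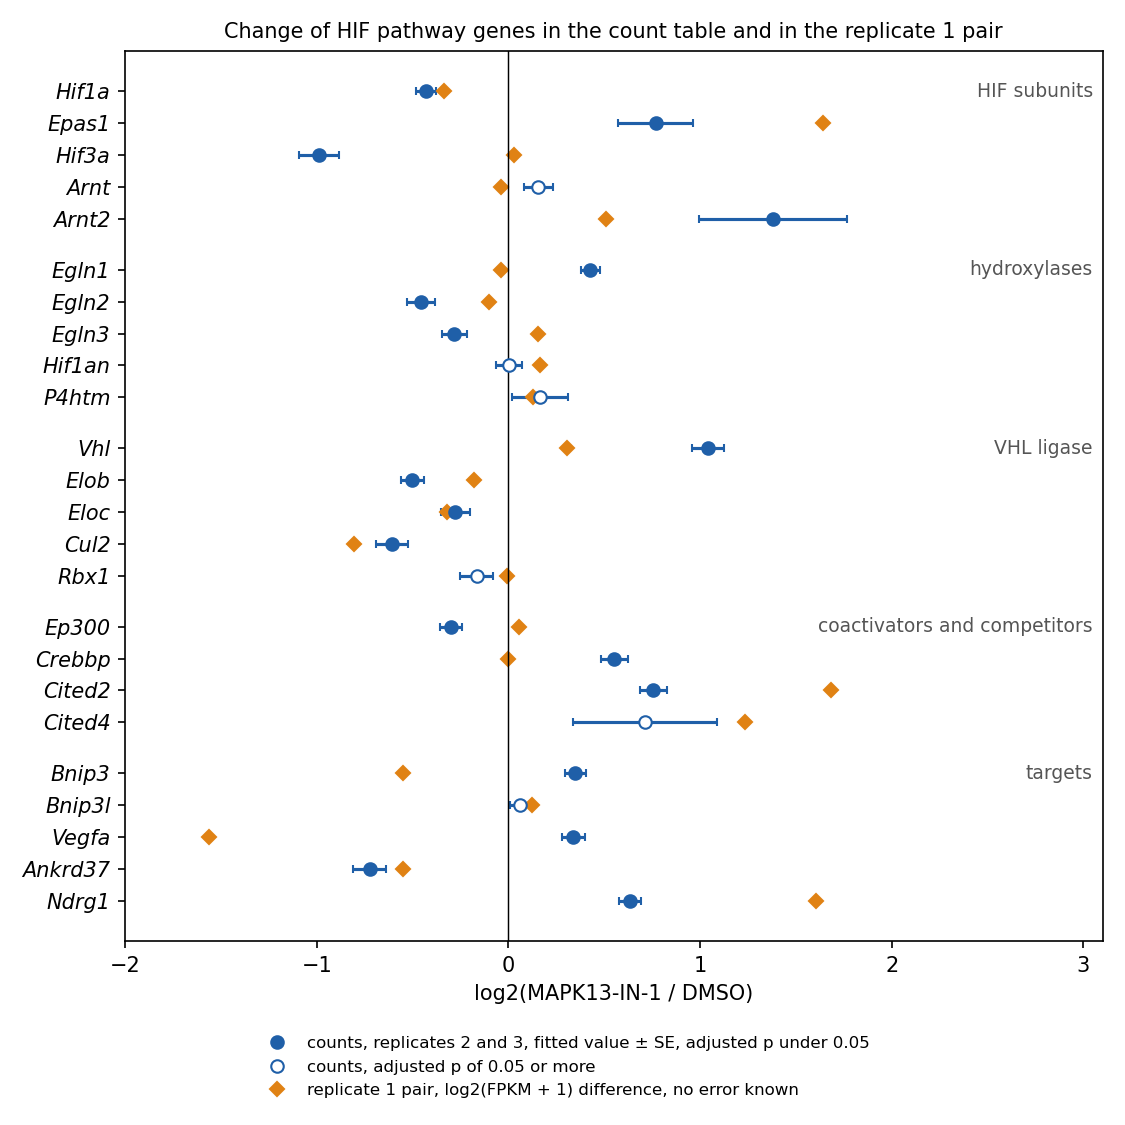
Each row is a gene, and the horizontal axis is the log2 ratio of MAPK13-IN-1 to DMSO. Circles are fitted log2 fold changes from the counts of replicates 2 and 3 with their standard errors (filled for an adjusted p under 0.05), and diamonds are differences in log2(FPKM + 1) of the replicate 1 pair, which have no error. *Hif1a*, *Vhl*, *Ankrd37* and *Ndrg1* lie on the same side of 0 in both, as do *Egln2* and *Bnip3l*, whereas *Egln1*, *Egln3*, *Bnip3* and *Vegfa* lie on opposite sides.

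The targets among the 10 genes did not move as a block either. *Bnip3* (ENSMUSG00000078566.8, chr7:138890836-138909519, minus strand) encodes a mitophagy receptor of the outer mitochondrial membrane. It was at 363 and 338 CPM in DMSO and at 444 and 448 CPM with MAPK13-IN-1. All of the MAPK13-IN-1 values were higher, with a log2 fold change of 0.35 (SE 0.0541, adjusted p = 0.000247, edgeR). Replicate 1 had the opposite direction, with 10.3 FPKM in DMSO and 6.74 FPKM with the inhibitor.

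*Bnip3l* (ENSMUSG00000022051.15, chr14:66985239-67008877, minus strand) encodes the related receptor Nix, which clears mitochondria from maturing red cells. It was at 506 and 482 CPM in DMSO and at 530 and 502 CPM with MAPK13-IN-1. The groups overlapped, and the log2 fold change of 0.06 did not pass (SE 0.0533, adjusted p = 0.324, edgeR). It passed as higher with scaling by library totals (0.19, adjusted p = 0.0105, edgeR), and its value was 0.10 without MAPK13-IN-1 replicate 3. Its replicate 1 values were 26.3 and 28.8 FPKM.

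*Vegfa* (ENSMUSG00000023951.17, chr17:46016993-46032369, minus strand) encodes vascular endothelial growth factor A. It was at 247 and 225 CPM in DMSO and at 298 and 299 CPM with MAPK13-IN-1. The groups did not overlap, and the log2 fold change was 0.34 (SE 0.059, adjusted p = 0.000538, edgeR). In the replicate 1 pair it was far lower with the inhibitor, at 3.32 FPKM against 11.8 FPKM, a log2 ratio of −1.56 on the scale of log2(FPKM + 1), where low values are compressed. Ratios of the 10400 genes with at least 1 FPKM in both of these libraries ran from −0.70 at the 5th percentile to 1.02 at the 95th.

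*Ankrd37* (ENSMUSG00000050914.16, chr8:45996902-46005707, minus strand) encodes a small ankyrin repeat protein and is a direct HIF-1 target. It was at 62.7 and 54.9 CPM in DMSO and at 34.9 and 36.3 CPM with MAPK13-IN-1. This was the largest fall of the 10 genes, with a log2 fold change of −0.72 (SE 0.0847, adjusted p = 3.4e-05, edgeR). It was also lower in the replicate 1 pair, at 2.44 against 4.04 FPKM.

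*Ndrg1* (ENSMUSG00000005125.13, chr15:66929318-66969640, minus strand) encodes a stress-responsive protein that in T cells has been linked to anergy. It was at 508 and 498 CPM in DMSO and at 742 and 821 CPM with MAPK13-IN-1. The rise was 1.55-fold, with a log2 fold change of 0.64 (SE 0.0575, adjusted p = 5.51e-06, edgeR). The replicate 1 pair had the same direction, from 9.71 to 31.5 FPKM, a log2 ratio of 1.60 that lay above the 95th percentile given above.

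Families of the target genes were followed in the same way. Of the 8 mitophagy receptor and regulator genes 7 were tested, and 3 rose (*Bnip3*, *Fundc1* and *Phb2*) and 3 fell (*Fkbp8*, *Bcl2l13* and *Pink1*), a share of 85.7% beside 63.8% of all genes and 74.1% of genes as abundant as the 10. *Fundc1*, another hypoxia-linked receptor gene, went from 17.5 and 17.1 to 31.3 and 30.8 CPM (log2 fold change 0.85, adjusted p = 1.87e-05, edgeR). *Fkbp8* went from 220 and 224 to 111 and 127 CPM (−0.90, adjusted p = 2.09e-06, edgeR). The 6 that passed had the opposite sign in the replicate 1 pair in each case, by small amounts for *Fundc1* (7.16 and 6.80 FPKM) and *Fkbp8* (83.6 and 85.9 FPKM), beside the 4665 of 7234 with the same sign over all genes. Of the VEGF family, *Vegfa* alone passed of 3 tested, a share of 33.3% beside 63.8% of all genes. *Vegfb* was at 12.7, 12.2, 12.8 and 14.7 CPM, and *Vegfc* and *Vegfd* had at most 13 counts in a library and were not tested. *Pgf* was at 1.59, 1.58, 2.06 and 2.60 CPM and did not pass (log2 fold change 0.55, adjusted p = 0.0787, edgeR), with values of 0.37 to 0.71 when 1 library was left out. It passed as higher with library totals (adjusted p = 0.0354, edgeR) and with at least 10 counts in every library (adjusted p = 0.0488, edgeR).

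Receptors for VEGF were scarce. *Flt1*, *Kdr* and *Flt4* had at most 25 counts in a library and did not pass. For *Kdr* the log2 fold change of 0.95 (adjusted p = 0.144, edgeR) was 0.36 without DMSO replicate 2 (adjusted p = 0.663) and 1.97 without DMSO replicate 3, where it passed as higher (adjusted p = 0.0449). The coreceptor gene *Nrp2* rose from 1.75 and 2.06 to 5.72 and 4.19 CPM (1.38, adjusted p = 0.000414, edgeR). *Nrp1*, also known in regulatory T cells, was at 8.03, 9.82, 7.64 and 5.81 CPM and just missed the threshold (log2 fold change −0.41, adjusted p = 0.0596, edgeR), with values of −0.62 to −0.23 when 1 library was left out. It passed as lower with the replicate block (adjusted p = 0.0229, edgeR) and with no filter on low counts (adjusted p = 0.0337, edgeR). In the replicate 1 pair it was higher with the inhibitor, at 3.17 and 18.6 FPKM. Of the 4 *Ndrg* genes, *Ndrg1* rose and *Ndrg2* fell (48.2 and 47.4 to 30.9 and 34.9 CPM, log2 fold change −0.54, adjusted p = 0.000273, edgeR), and *Ndrg3* and *Ndrg4* did not pass. This share of 50.0% stands beside 63.8% of all genes, and *Ndrg2* went the other way in the replicate 1 pair, from 5.00 to 8.52 FPKM.

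A list of 49 hypoxia targets outside glycolysis, which contains 7 of the 10 genes, had 47 tested genes. Despite its name it includes the glycolytic regulator genes *Pfkfb3* and *Pfkfb4*, which did not pass. Of the tested genes 16 were higher, 21 were lower and 10 did not pass, and the median log2 fold change was −0.15. The share that passed, 78.7%, is to be read beside 63.8% for all genes and 74.1% for genes as abundant as the 10. With library totals 19 were higher and 16 lower, so which direction held more genes depends on the scaling. The largest rises were in *Adm*, which encodes the vasodilator peptide adrenomedullin, *Rora*, a nuclear receptor gene, *Zfp395* and *Pdk1*, whose product keeps pyruvate out of mitochondria. *Adm* rose from 9.46 and 6.40 to 48.5 and 53.2 CPM (log2 fold change 2.68, SE 0.147, adjusted p = 2.14e-07, edgeR), and from 0.338 to 6.74 FPKM in the replicate 1 pair. *Rora* rose from 27.9 and 26.0 to 91.1 and 85.6 CPM (1.71, adjusted p = 7.32e-08, edgeR), and from 1.76 to 5.29 FPKM. *Zfp395* and *Pdk1*, at 125, 121, 240 and 240 CPM and at 218, 210, 413 and 375 CPM, rose by 0.96 and 0.88 on the log2 scale but were lower in the replicate 1 pair (5.33 to 4.32 and 6.23 to 4.30 FPKM).

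The largest falls of that list were in *Stc2*, *Car12*, *Loxl2* and *Gys1*. *Stc2*, which encodes the glycoprotein stanniocalcin 2, fell from 123 and 126 to 8.48 and 8.94 CPM (log2 fold change −3.84, SE 0.079, adjusted p = 1.26e-09, edgeR), and from 33.6 to 6.03 FPKM. *Gys1*, the glycogen synthase gene of muscle and most other tissues, fell from 280 and 277 to 138 and 180 CPM (−0.81, adjusted p = 4.8e-05, edgeR), and from 11.7 to 5.01 FPKM. *Car12*, a carbonic anhydrase gene, fell from 7.99 and 7.98 to 2.42 and 3.93 CPM (−1.33, adjusted p = 0.000309, edgeR), with 1.77 and 2.29 FPKM in the replicate 1 pair. *Loxl2*, a lysyl oxidase gene at 2.44, 1.54, 1.07 and 0.974 CPM, passed (−0.96, adjusted p = 0.0204, edgeR) but not without DMSO replicate 2 (−0.61, adjusted p = 0.241) or with DESeq2 (adjusted p = 0.146). Of the 32 genes of the list that passed and had at least 1 FPKM in both replicate 1 libraries, 16 had the same direction there. This is to be read beside the 4665 of 7234 over all such genes.

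Of 17 glycolytic HIF targets, 10 were lower, 2 were higher and 5 did not pass, with a median log2 fold change of −0.25. The share that passed was 70.6%, beside 63.8% of all genes and 74.1% of genes as abundant as the 10, of which 39.9% were lower. In the replicate 1 pair 13 of the 17 were lower, beside 4744 of the 10400 genes that reached 1 FPKM in each of its libraries. *Slc16a3*, which encodes the lactate exporter MCT4, fell from 632 and 621 to 302 and 366 CPM (−0.91, adjusted p = 4.09e-06, edgeR). *Tpi1* fell from 2030 and 1982 to 1119 and 1209 CPM (−0.79, adjusted p = 5.65e-07, edgeR). *Ldha*, the lactate dehydrogenase gene, fell from 4107 and 3989 to 2403 and 2488 CPM (−0.73, adjusted p = 3.35e-07, edgeR), and from 642 to 434 FPKM. *Pgk1* fell from 3949 and 3884 to 2525 and 2649 CPM (−0.60, adjusted p = 1.25e-06, edgeR), and from 540 to 306 FPKM. The 2 that rose were *Slc2a1*, the glucose transporter GLUT1 gene, from 587 and 562 to 642 and 700 CPM (0.23, adjusted p = 0.00507, edgeR), and *Hk1*, from 813 and 786 to 865 and 929 CPM (0.17, adjusted p = 0.0166, edgeR). In the replicate 1 pair *Slc2a1* went the other way, from 31.9 to 24.8 FPKM. Of the 12 genes of the list that passed, 9 had the same direction there as in the counts. Over all genes that passed and had at least 1 FPKM in both replicate 1 libraries, 4665 of 7234 did. The calls of *Slc2a1* and *Hk1* were lost without DMSO replicate 3, with log2 fold changes of 0.19 and 0.13 in place of 0.23 and 0.17. That of *Hk1* was also lost without DMSO replicate 2, although its value of 0.18 was no smaller than with all libraries. The value of *Hk1* was 0.11 without MAPK13-IN-1 replicate 3. Without MAPK13-IN-1 replicate 2, or with scaling by library totals, 4 genes were higher, and with library totals 8 were lower.

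Levels of the 10 genes were compared with each other per length, as RPKM over the exons of GENCODE M21. In the DMSO libraries *Egln3* was the most abundant, at 237 ± 6.58 RPKM (SD, n = 2), followed by *Bnip3* at 148 ± 7.93, *Bnip3l* at 122 ± 4.65 and *Egln1* at 102 ± 3.76 RPKM. *Ndrg1* (73.0 RPKM), *Hif1a* (59.0), *Vegfa* (52.8), *Ankrd37* (36.6), *Egln2* (22.8) and *Vhl* (17.7 RPKM) came next. No neighbours in this order overlapped between the DMSO libraries. With MAPK13-IN-1, *Egln3* (198 and 226 RPKM) and *Bnip3* (206 and 206 RPKM) overlapped at the top, *Vhl* (41.1 and 38.3 RPKM) stood above *Ankrd37* (23.8 and 24.5 RPKM), and *Egln2* (17.7 and 18.6 RPKM) was lowest.

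The replicate 1 pair had another order. There *Hif1a* was the most abundant of the 10 in both libraries, at 177 and 140 FPKM, and the other 9 were between 2.44 and 31.5 FPKM. Since the tables were normalized separately and with gene lengths that may differ, levels across them are described and not tested. In DMSO, the log2 ratio of RPKM in replicates 2 and 3 to FPKM in replicate 1 had a median of 2.40 for the 10 genes, against −0.45 for the 10158 genes with at least 1 CPM and 1 FPKM. It was 1.43 for 39 hypoxia targets outside glycolysis, 1.78 for 16 glycolytic targets and −1.31 for the 5 genes of the Vhl ligase. The same ratio was −1.54 for the CD4 T cell markers and 2.89 for the B cell markers. The part of the library kit and of cell content in these levels was not tested.

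*Mapk13* itself, which encodes the kinase the compound is directed against, was scarce. Its counts were 79 and 74 with DMSO and 21 and 51 with MAPK13-IN-1 (log2 fold change −1.47, SE 0.363, adjusted p = 0.0049, edgeR). The value rested on the inhibitor libraries, being −0.94 without MAPK13-IN-1 replicate 2 and −2.29 without MAPK13-IN-1 replicate 3. In the replicate 1 pair it was at 0.191 FPKM in DMSO and 3.28 FPKM with the inhibitor. A kinase inhibitor acts on the protein, so the transcript is no check of the labels.

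Some of the 10 genes share sequence with other genes, and the counting of replicates 2 and 3 is not stated to use strand, so reads from the opposite strand cannot be told apart. Exons of *Ankrd37* overlap those of *Ufsp2* and *Lrp2bp* on the other strand. *Ufsp2* had 514, 534, 931 and 872 counts and rose (adjusted p = 0.00343, edgeR), opposite to *Ankrd37*. *Hif1a* overlaps the antisense gene *Gm15283*, with 123, 106, 368 and 342 counts against 9202 to 9703 for *Hif1a*. It also overlaps the protein-coding gene *Gm49321* on its own strand, where knowing the strand would not separate the reads. *Egln2* overlaps *Cyp2t4* (18 to 60 counts) and *Ndrg1* overlaps *Gm2895* (0 to 56 counts). *Ndrg1* also overlaps *Gm17035*, and *Bnip3* overlaps *Gm45507*, both antisense. *Gm49321*, *Gm17035* and *Gm45507* were not analysed here. *Bnip3l* has a processed copy, *Bnip3l-ps*, counted at 280 to 370, between which and *Bnip3l* the counting could have split reads.

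Promoters were read because HIF binds a short core, spelled ACGTG or, in its other common form, GCGTG, and because target genes with such cores moved in opposite directions here. RefSeq promoter windows (GRCm38.p6) were found for 8 of the 10 genes, 10 windows in all, and *Bnip3l* and *Ndrg1* had no entry. In the 250 bases before the start, on both strands, ACGTG was present in 16.6% and GCGTG in 28.2% of 32851 windows, and either of them in 38.6%. Of the 10 windows, which count *Egln2* and *Vegfa* with 2 each, 8 held at least 1 of them. *Vhl*, the gene with the largest rise, had 0 matches in its window. *Vegfa*, which also rose, had 0 in one window and 2 in the other, both within an exon of *Vegfa*, and *Egln2*, which fell, had 1 and 4. The stretches below lie outside annotated exons and run 5′ to 3′ on the strand of the gene, with every match to either core on either strand in capitals and overlapping matches joined. *Bnip3*, a target that rose, is shown from chr7:138909520-138909643 (minus strand), just upstream of its first exon, with 5 matches. *Ankrd37*, a target that fell, is shown from chr8:45999978-46000100 (minus strand, within the annotated gene), with 3 matches. *Egln1*, which rose, is shown from chr8:124949356-124949400, and *Egln3*, which fell, from chr12:54204079-54204123 (both minus strand), with 1 match each. *Hif1a* is shown from chr12:73907712-73907821 (plus strand, within the annotated gene), with 3 matches.
Bnip3: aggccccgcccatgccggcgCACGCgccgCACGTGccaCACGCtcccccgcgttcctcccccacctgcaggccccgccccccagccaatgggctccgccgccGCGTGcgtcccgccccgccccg
Ankrd37: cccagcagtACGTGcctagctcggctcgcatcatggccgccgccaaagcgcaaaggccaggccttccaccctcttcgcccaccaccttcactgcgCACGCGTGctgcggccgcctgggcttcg
Egln1: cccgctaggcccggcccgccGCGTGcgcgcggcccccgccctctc
Egln3: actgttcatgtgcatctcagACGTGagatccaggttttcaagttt
Hif1a: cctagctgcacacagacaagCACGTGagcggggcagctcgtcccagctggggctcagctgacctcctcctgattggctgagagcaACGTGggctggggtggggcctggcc
Matches were present in promoters of genes that rose and of genes that fell, and their part in the changes was not tested. A match describes letters in a window and is not a site of binding. Only the 250 bases before each start were searched, so a window without a match does not show that the gene lacks a core elsewhere.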

How the data were processed

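The authors deposited whole-number counts by gene symbol for replicates 2 and 3. The submitters' processing notes name fastp 0.21.0, HISAT2 2.1.0, StringTie 2.1.5, DESeq2 1.30.1 and the build mm10. Replicate 1 values, deposited in separate tables and already normalized, were taken as FPKM, a unit inferred from the numbers because the tables name none; HISAT2 is named there. Annotation and strand setting are not given in the sources used here.

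The count analysis used edgeR 4.0.16 in R 4.3.3 (filterByExpr with a minimum count of 10 and a minimum total of 15, TMM, quasi-likelihood test, 2 libraries against 2 with no covariate, Benjamini-Hochberg adjustment over all genes tested, threshold 0.05), after a test on simulated data. Totals were 26874805 to 33854760 counts per library, and the precision of the fit also rests on the spread between the libraries of a group. The replicate 1 pair was given as values and log2(FPKM + 1) ratios, with no test. Genes named beside the 10 and *Mapk13* were up to 4 rises and 4 falls of each pathway list (adjusted p under 0.05, both numbered pairs alike, mean of at least 1 CPM), members of the small families, and the most abundant or absent marker genes. *Ero1l* was matched as *Ero1a*. The marker sums and counts include a gene that is not reported here. The genes and lists were chosen with earlier results of these data known. Gene positions and exon lengths are from GENCODE M21 and promoter windows from RefSeq. Alternatives were RLE factors, library totals, no filter, at least 10 counts in every library, a replicate block, DESeq2 1.42.0, each library left out, and for FPKM a pseudocount of 0.1, a minimum of 1 FPKM, and centring on the median ratio.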

Additional observations from a re-analysis of the deposited data

How the results depend on the processing

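The 9 calls among the 10 genes kept their direction and passed under all 10 alternatives, with 5 to 6 genes higher and 4 lower when each library was left out in turn. *Bnip3l* gained a call with library totals (0.19) and had values of 0.019 to 0.095 with 1 library left out. Glycolytic targets called higher numbered 4 with library totals and 0 to 4 with 1 library left out. In the count table, replicates of different groups that share a number did not deviate together (correlation 0.00735), which gives no sign of pairing there. The replicate 1 pair, which shares a library kit, was not part of this check. Library totals gave 6176 genes higher and 4302 lower, and 19 higher and 16 lower among the hypoxia targets outside glycolysis, against 16 and 21. DESeq2 gave 4001 higher and 4277 lower of 19650. With the replicate block, 5261 genes were higher and 5384 lower, against 5122 and 5252, and the 10 genes had 5 higher and 4 lower. Leaving out 1 library gave 4298 to 5268 genes higher and 4433 to 5675 lower, the lone library being assumed to vary like the other group. Among 44 other genes, 30 kept direction and call in every alternative that gave a value. Reversals were *Hif1an* (−0.043 to 0.044 with 1 library left out, below 0 without DMSO replicate 2 or MAPK13-IN-1 replicate 3), *Flt4* (−0.82 to 0.33, above 0 without DMSO replicate 2) and *Ndrg3* (−0.047 to 0.14, below 0 without DMSO replicate 3), none of which passed. In the replicate 1 pair a pseudocount of 0.1 moved *Vegfa* to −1.79 and *Ankrd37* to −0.70, and no other ratio of the 10 genes moved by 0.1 or more or changed sign under the alternatives. The causes were not tested.

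Groups of 2 libraries limit every p-value to the spread seen between them. The depth of the replicate 1 pair is unknown, its unit is inferred, and its opposite values for *Bnip3*, *Vegfa*, *Egln1* and *Egln3* have no error.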
